A study of Mus musculus with 8 samples.

Results

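Cxcl13-expressing microglia were the sorted lumbar cord cells of the A20 cKO libraries that held at least 2 unique molecular identifiers (UMIs, each marking 1 captured RNA molecule) of Cxcl13. Cells were first kept when they had at least 1000 UMIs, at least 500 genes and at most 10% mitochondrial UMIs. In this way 424 cells were chosen out of 5033 kept cells of the A20 cKO libraries and 14626 kept cells in all. The naive library gave 195 of them and the libraries of days 1, 2 and 3 after sciatic nerve injury gave 46, 102 and 81. The cells were chosen by their measured Cxcl13 UMIs, so Cxcl13 is described in them without a test. They were compared with the 4052 kept cells of the same libraries in which no Cxcl13 UMI was found, called 0-UMI cells below, while the 557 cells with exactly 1 UMI were set aside.

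The 8 libraries were single-cell RNA sequencing of YFP (+) cells sorted from lumbar spinal cord of young adult C57BL/6 mice, 4 labeled Cx3cr1-yfp-creER/+ (control) and 4 labeled Cx3cr1-yfp-creER/+; Tnfaip3 fl/fl (A20 cKO). Per genotype, 1 library came from uninjured (naive) mice and the others from mice 1, 2 and 3 days after bilateral transection of the sciatic nerve. Cords of 3 animals were pooled per library, so each group was 1 library with no replicate. The methods state tamoxifen on 5 consecutive days with experiments 7 days after the first dose,. All 8 groups carried the YFP and inducible Cre allele at 1 copy of Cx3cr1. That gene is also used by other macrophages and by monocytes, so neither the sort nor the deletion of Tnfaip3 was limited to microglia by its design.

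CXCL13 is a chemokine that attracts B cells through the receptor CXCR5, and in lymphoid follicles it is made mainly by stromal and follicular dendritic cells. In inflamed tissue it can also be made by macrophages, and it is known as a marker of B cell gathering in the inflamed central nervous system. Tnfaip3 encodes A20, an enzyme that edits ubiquitin chains and restrains NF-kB signaling downstream of cytokine and Toll-like receptors.

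The 250 bases before the RefSeq start of Cxcl13 and of 4 genes that were higher in the Cxcl13 cells are printed below. They run 5′ to 3′ on the strand of each gene (build GRCm38.p6). The 4 genes moved with Cxcl13 and differ in the motif letters found in this window. Capitals mark a TATA box (TATAAA) or the core of an interferon-stimulated response element (GAAA, any 2 bases and GAAA on either strand, so that a match on the other strand reads TTTC, any 2 bases and TTTC). The matches are letters in a window and not measured binding sites.
Cxcl13, chr5:95956689-95956938, plus strand: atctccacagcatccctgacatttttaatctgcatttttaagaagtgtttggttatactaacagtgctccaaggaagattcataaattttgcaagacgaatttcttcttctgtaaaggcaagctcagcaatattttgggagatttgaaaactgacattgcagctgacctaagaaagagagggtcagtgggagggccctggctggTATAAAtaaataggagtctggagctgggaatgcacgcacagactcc
Cxcl9, chr5:92328080-92328329, minus strand: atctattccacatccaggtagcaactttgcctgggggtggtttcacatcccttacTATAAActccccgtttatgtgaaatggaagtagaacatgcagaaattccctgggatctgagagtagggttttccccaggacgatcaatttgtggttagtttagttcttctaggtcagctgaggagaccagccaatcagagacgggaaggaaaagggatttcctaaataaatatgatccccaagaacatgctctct
Cxcl10, chr5:92348890-92349139, minus strand: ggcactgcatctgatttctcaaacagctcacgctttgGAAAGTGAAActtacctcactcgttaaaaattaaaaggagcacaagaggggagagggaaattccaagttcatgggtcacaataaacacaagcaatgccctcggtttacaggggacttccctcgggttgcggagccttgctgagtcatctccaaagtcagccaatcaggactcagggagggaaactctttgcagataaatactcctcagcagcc
Oas1g, chr5:120887614-120887863, minus strand: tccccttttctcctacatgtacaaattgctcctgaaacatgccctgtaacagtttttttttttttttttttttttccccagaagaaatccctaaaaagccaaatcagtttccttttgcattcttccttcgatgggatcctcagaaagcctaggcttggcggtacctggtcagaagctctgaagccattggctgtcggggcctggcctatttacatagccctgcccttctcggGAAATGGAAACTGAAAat
Ifit1, chr19:34640639-34640888, plus strand: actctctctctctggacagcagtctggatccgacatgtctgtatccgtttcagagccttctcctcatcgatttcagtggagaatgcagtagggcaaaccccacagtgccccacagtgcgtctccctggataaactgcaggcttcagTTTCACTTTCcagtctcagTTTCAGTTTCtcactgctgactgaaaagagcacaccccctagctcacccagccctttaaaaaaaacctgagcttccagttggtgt

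The Cxcl13 window held a TATA box whose first base lay 46 bases before the start. It held no match to the interferon core or to an NF-kB core (GGG, any 2 bases and TTTCC, either strand). That NF-kB pattern is narrow and other forms of the site were not searched, so a missing match does not show that a site is absent. In the Cxcl9 window the letters TATAAA lay much further away, at 195 bases before the start. Oas1g held overlapping interferon cores at 18 and 12 bases, Ifit1 cores at 104 and 85 bases and Cxcl10 a core at 213 bases before the start. Of all 27025 RefSeq genes with such a window, 3.46% held the interferon core and 1.65% the NF-kB core, on either strand. A TATA box, searched on the strand of the gene only, was in 8.94%. The Cxcl13 gene (ENSMUSG00000023078) spans chromosome 5, 95956951 to 95961068, on the plus strand of GRCm38 in GENCODE M21, and the window printed for it lies just upstream of that gene.

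The libraries differed in size and in barcodes. They held between 579 and 3585 barcodes with 1648400 to 15817426 UMIs, and the median depth of kept cells lay between 2780 and 4274 UMIs. Some barcodes occurred in more than 1 library, between 13 and 85 per library, and control and A20 cKO libraries were both among them. Of the Cxcl13 cells, 2, 2, 3 and 1 in naive and days 1, 2 and 3 had such a barcode, or 1.03%, 4.35%, 2.94% and 1.23%. Among 0-UMI cells the shares were 1.89%, 7.08%, 6.31% and 3.69%. A single barcode was a Cxcl13 cell in more than 1 library.

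Cxcl13 was abundant in the A20 cKO libraries and was near 0 in the controls. In A20 cKO naive, 6.67% of kept cells met the rule (exact Clopper-Pearson 95% interval 5.80 to 7.64, counting error only). Day 1 had 5.19% (3.83 to 6.86). Higher shares were found for day 2, with 15.3% (12.6 to 18.3), and day 3, with 14.5% (11.7 to 17.7). The naive and day 1 intervals overlapped, as did those of days 2 and 3, while both later intervals lay above both earlier ones. In the controls, 0 of 568 naive cells, 0 of 3323 day 1 cells and 0 of 3585 day 2 cells had 2 UMIs, which allows shares of up to 0.528%, 0.0903% and 0.0837%. Control day 3 had 3 of 2117 cells (0.142%, 0.0292 to 0.414) with 2 or more UMIs, at most 6, and 14 cells with at least 1 UMI. None of those 14 cells had a barcode that also occurred in another library. With 1 library per group no test between libraries was possible, and genotype or day cannot be told apart from the preparation of each library.

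The level over all kept cells followed the same order. Cxcl13 reached 535.6 CPM in A20 cKO naive (UMIs scaled to a total of 1000000 UMIs; exact Poisson interval 520.5 to 551). Day 1 was lower, at 316 CPM (296 to 337). The injured cords of days 2 and 3 gave 871 CPM (839 to 905) and 785 CPM (751 to 821). Control day 3 had 21 UMIs or 2.88 CPM (1.78 to 4.41) and control day 1 had 2 UMIs or 0.142 CPM (0.0172 to 0.514). No UMI was found in control naive or day 2, which allows up to 1.85 and 0.190 CPM. Depth differed between libraries, so cells were also thinned to 2000 UMIs each, with shallower cells left out. The A20 cKO shares were then 6.16%, 4.34%, 11.2% and 12.1% from naive to day 3, of 2612, 830, 626 and 538 cells, and control day 3 had 0.0532%. The share was then higher on day 3 than on day 2, with overlapping intervals (9.45 to 15.1 and 8.82 to 13.9).

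**Figure D1:**
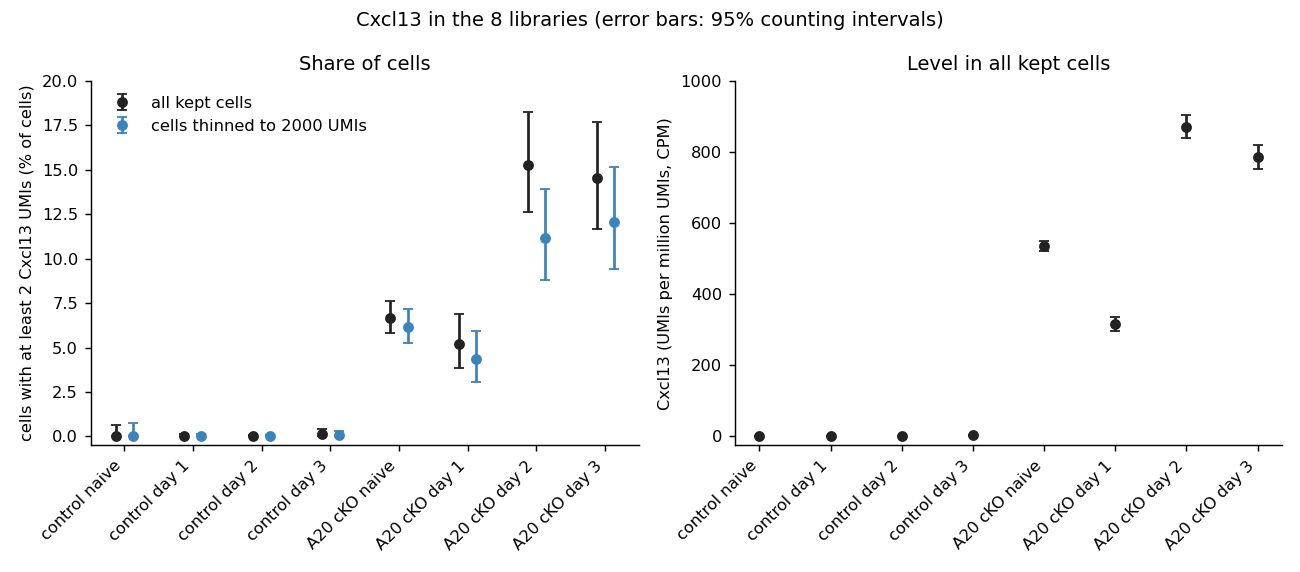
Share of cells with at least 2 Cxcl13 UMIs in percent (left; black, all kept cells; blue, cells thinned to 2000 UMIs each) and Cxcl13 level in CPM (right) in each of the 8 libraries, with 95% counting intervals as bars. The 4 A20 cKO libraries sit between 316 and 871 CPM, and no control library is above 2.88 CPM.

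Single UMIs were more widespread than the cells chosen here. At least 1 UMI was found in 16.5%, 12.3%, 35.8% and 27.1% of A20 cKO cells from naive to day 3, at median depths of 2824, 3107.5, 4128 and 4274 UMIs. Only 11 kept A20 cKO cells had at least 3 markers of another cell type and at most 2 of 8 microglia markers, and none of them had a Cxcl13 UMI. At 11 cells with a median of 1435 UMIs the upper limit of that share was 28.5%, so background from free RNA could not be measured closely enough to be told apart from the shares with 1 UMI.

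Within the 424 Cxcl13 cells the transcript was very unevenly spread. The median cell had 9 UMIs (quartiles 4 and 30) and the highest had 232, in the naive library, where up to 4.43% of all UMIs of a cell were Cxcl13. The medians were 9, 11.5, 10 and 10 from naive to day 3 and the highest cells held 232, 84, 175 and 156 UMIs, so the level per Cxcl13 cell varied little between the libraries while the share of such cells did. The 43 cells with the most UMIs held 42.8% of the Cxcl13 UMIs of all kept A20 cKO cells. By class, 99 cells had 2 or 3 UMIs, 166 had 4 to 15 and 159 had 16 or more, and these 159 cells, 3.16% of kept A20 cKO cells, held 79.8% of all Cxcl13 UMIs. The 557 cells with 1 UMI, just outside the rule, held 5.37% and the 99 cells just inside it held 2.18%.

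**Figure D2:**
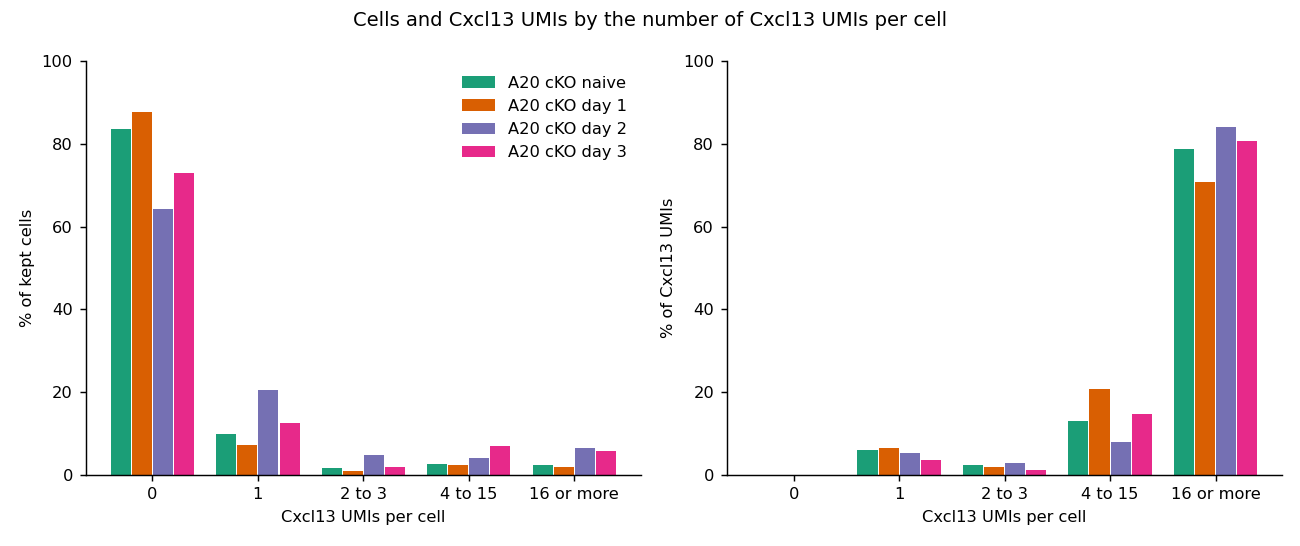
Percent of kept cells (left) and percent of Cxcl13 UMIs (right) by the number of Cxcl13 UMIs per cell, with 1 bar per A20 cKO library. Cells with 16 or more UMIs are between 1.81% and 6.45% of the cells of a library and hold between 70.7% and 84.1% of its Cxcl13 UMIs.

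The Cxcl13 cells were deeper than the 0-UMI cells, and this moves with the rule because 2 UMIs of any gene are reached more easily in a deep cell. Their median depth was 3773, 4368, 4868 and 4828 UMIs from naive to day 3, against 2754.5, 3036, 3847.5 and 4148 UMIs in 0-UMI cells. The classes were therefore also compared with 1 0-UMI cell of nearest depth per Cxcl13 cell. In naive this cut the 0-UMI cells from 2440 to 195, and the genes tested fell from 9653 to 7254. The fit thus changed both depth and the number of counts, and their parts were not tested. In that fit 27 of the 70 called genes of the naming rule missed the threshold. For those described below the depth-matched value, or the count of their list in that fit, is given.

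The label of microglia held against the markers. In 421 of the 424 Cxcl13 cells (99.3%) at least 5 of 8 microglia markers (a list that includes P2ry12, Tmem119, Csf1r, Cx3cr1, Fcrls, Siglech and Olfml3) were found, against 97.9% of 0-UMI cells. Summed over the 8 markers the level was 11329 to 15308 CPM in Cxcl13 cells and 12975 to 20336 CPM in 0-UMI cells.

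Most markers of other cells that could make CXCL13 were at or near 0. All 5 measured T or NK cell markers were at 0 in Cxcl13 cells, as were the B cell markers Ms4a1, Cd79a and Pax5. The B cell marker Cd79b had 18, 6, 12 and 9 UMIs in Cxcl13 cells from naive to day 3 (22.5, 30.5, 21.1 and 22.2 CPM against 31.9, 34.6, 32.2 and 21.4 CPM). Of 8 markers of follicular dendritic or stromal cells, 6 were at 0 (Fcer2a, Pdgfrb, Pdpn, Col1a1, Dcn and Lum), and the summed list stood at 10.2 to 32.0 CPM against 11.7 to 20.8 CPM in 0-UMI cells. The dendritic cell list held 8 UMIs in all 424 cells, with Clec9a, Cd209a and Ccr7 at 0.

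Lists of other macrophages gave 2 genes that were higher in the Cxcl13 cells. Of 7 border macrophage markers, Cd163, Lyve1 and F13a1 were at 0 in Cxcl13 cells, and the list stood at 3.52 to 32.0 CPM against 5.30 to 7.87 CPM in 0-UMI cells, with Ms4a7 as the 1 gene of it that was tested. Ms4a7, a membrane protein of tissue macrophages, had 15, 6, 1 and 13 UMIs in the Cxcl13 cells from naive to day 3 (18.7, 30.5, 1.76 and 32.0 CPM against 3.76, 1.15, 2.22 and 5.62 CPM) and was higher by 2.56 ± 0.51 log2 (adjusted p = 0.0138, edgeR). On day 2 its CPM was lower in the Cxcl13 cells, on 1 UMI. Single Cxcl13 cells held 6 of the 15 UMIs in naive, 6 of the 6 on day 1 and 6 of the 13 on day 3. Of 6 monocyte markers, Ly6c2 was at 0 and Ccr2 had 1, 0, 1 and 2 UMIs from naive to day 3. The list stood at 51.7 to 121 CPM against 32.1 to 81.0 CPM, and Plac8, which interferon-treated macrophages also express, carried most of it, with 87.5, 81.2, 107 and 41.8 CPM in Cxcl13 cells against 26.5, 27.7, 66.0 and 51.7 CPM (1.03 ± 0.23 log2, adjusted p = 0.0281, higher in 3 of 4 libraries). The part of other macrophages in the differences below was not tested.

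To ask which genes moved with Cxcl13, UMIs were summed over the Cxcl13 cells and over the 0-UMI cells of each A20 cKO library, and the 8 sums were compared with the quasi-likelihood test of edgeR with the library as a block. Cxcl13 itself was left out of this fit. Of 9653 genes tested, 102 were higher in Cxcl13 cells (1.06%) and 33 lower (0.342%) at an adjusted p of 0.05, or 1.4% in all. The direction was the same in all 4 libraries for 94 of the 102 and for 33 of the 33. The p-values rest on 4 libraries that differ in day and test an average difference over them, so a called gene need not differ in each library. Cells were never used as replicates.

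The count of calls rested on the early libraries. Without the naive library, 0 genes were called higher and 1 lower (310 and 231 at an unadjusted p of 0.05), and without day 1, 12 and 5. Without day 2 the counts were 157 and 50 and without day 3 they were 124 and 43. Against depth-matched 0-UMI cells 58 genes were higher and 24 lower of 7254 tested (0.8% and 0.331%), and 49 and 10 of them were also called in the full comparison. DESeq2 called 59 and 8 of 3851 genes. The 70 called genes taken by the naming rule kept their sign in each of these fits that tested them, the naive library left out included. Ms4a7, Plac8, Clu and Enpp2 are named outside that rule, after their values were seen, and are not among the 70.

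The differences were larger in naive and day 1 than on days 2 and 3. For the 102 higher genes the median log2 ratios from naive to day 3 were 1.32, 0.92, 0.40 and 0.32, against -0.04, -0.04, 0.02 and -0.02 for all genes tested. For the 33 lower genes it was -1.20, -0.91, -0.51 and -0.45. Each day was 1 library, so this change with day was not tested.

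**Figure D3:**
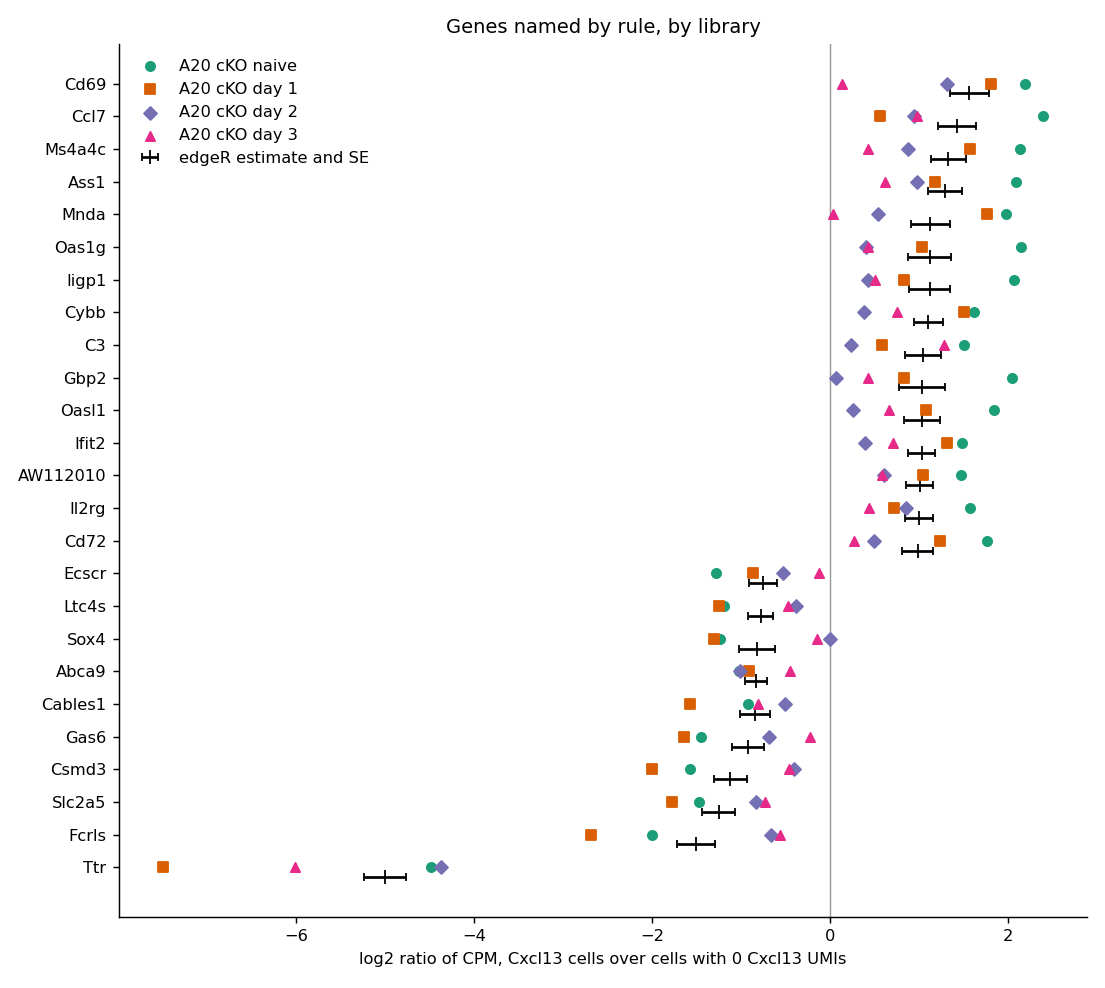
Log2 ratio of CPM in Cxcl13 cells over 0-UMI cells for the 25 genes named by rule, with 1 symbol per A20 cKO library and the edgeR estimate with its SE as a black bar. The 15 higher genes lie above 0 and the 10 lower genes below 0 in all 4 libraries because the rule required it. The naive symbol is highest for 15 of the 15 higher genes.

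The other chemokine ligands were examined first. Of 12 genes of the CC family 8 were tested and 2 were higher, and of 9 measured CXC genes other than Cxcl13, 3 were tested and 3 were higher, beside 1.06% of all genes. Cxcl9, which attracts activated T cells and is induced by interferon gamma, stood at 81.2, 50.8, 17.6 and 68.9 CPM in Cxcl13 cells from naive to day 3 and at 8.78, 6.15, 18.9 and 17.4 CPM in 0-UMI cells. It was higher by 2.26 ± 0.37 log2 (adjusted p = 0.00297, edgeR) and in 3 of 4 libraries, day 2 being the exception. Its sums in Cxcl13 cells were small, with 65, 10, 10 and 28 UMIs. Single Cxcl13 cells held 21 of the 65 UMIs in naive, 6 of the 10 on day 1 and 10 of the 28 on day 3.

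Cxcl10, an interferon-induced ligand of the same receptor as Cxcl9, stood at 614, 868, 575 and 463 CPM against 225, 312, 498 and 429 CPM, higher in all 4 libraries (0.87 ± 0.18 log2, adjusted p = 0.021). Against depth-matched cells it was 0.43 log2 with an adjusted p of 0.0803, and DESeq2 gave an adjusted p of 0.43. Cxcl16, a chemokine that also exists as a membrane-bound scavenger receptor, was more even, with 663, 665, 638 and 756 CPM against 247, 321, 514 and 484 CPM (0.91 ± 0.14 log2, adjusted p = 0.00212), and held against depth-matched cells (0.79 log2, adjusted p = 4.61e-05).

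Among CC chemokines, Ccl7, which attracts monocytes through CCR2, was at 161, 96.5, 102 and 162 CPM in Cxcl13 cells and at 30.7, 66.9, 53.2 and 83.2 CPM in 0-UMI cells. All 4 Cxcl13 values lay above all 4 values of the 0-UMI cells (1.43 ± 0.21 log2, adjusted p = 0.00159). The naive value rested in large part on a single cell. The 68 naive cells with 16 or more Cxcl13 UMIs held 95 Ccl7 UMIs, and 1 of these cells held 52 of them. Ccl2, a close relative with the same receptor, was at 491, 1046, 508 and 689 CPM against 171, 510.4, 487 and 515 CPM (0.82 ± 0.17 log2, adjusted p = 0.0162), and only 0.24 log2 against depth-matched cells (adjusted p = 0.58). Ccl5, which attracts T cells and monocytes, was at 2864, 4088, 2378 and 2656 CPM against 1271, 1848, 2986 and 2596 CPM and did not pass the test (0.56 ± 0.19 log2, adjusted p = 0.206). Ccl3 and Ccl4, inflammatory chemokines of macrophages, had log2 values of 0.25 ± 0.18 and 0.28 ± 0.24 (adjusted p = 0.68 and 0.742).

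The gene of the CXCL13 receptor was close to absent. Cxcr5 had 0 UMIs in the Cxcl13 cells of all 4 libraries and at most 0.385 CPM in 0-UMI cells. Of 17 genes of B cell recruitment and follicles, 5 were tested and 1 was higher, beside 1.06% of all genes. This was Ch25h, the enzyme that starts the synthesis of an oxysterol that guides B cells, at 67.5, 5.08, 19.3 and 51.7 CPM against 5.02, 12.7, 8.87 and 18.6 CPM (2.13 ± 0.42 log2, adjusted p = 0.0139). It was lower on day 1, where the Cxcl13 cells held 1 UMI. Single Cxcl13 cells held 13 Ch25h UMIs in naive, 6 on day 2 and 9 on day 3, where all kept cells held 92, 39 and 62. Tnfsf13b, which encodes the B cell survival factor BAFF, was at 207, 157, 158 and 202 CPM against 149, 147, 144 and 166 CPM, higher in all 4 libraries and not past the test (0.33 ± 0.12 log2, adjusted p = 0.251). The receptor of that oxysterol, Gpr183, and the lymphotoxin receptor Ltbr had log2 values of -0.21 ± 0.14 and -0.03 ± 0.25.

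Tnfaip3 and the NF-kB genes that A20 bears on were examined next. Tnfaip3 itself was at 68.7, 60.9, 45.7 and 88.6 CPM in Cxcl13 cells and at 44.3, 42.7, 52.7 and 64.1 CPM in 0-UMI cells (0.43 ± 0.17 log2, adjusted p = 0.341). The counted 3′ ends need not lie in the floxed part of the gene, so this does not check the deletion in either class. Of 20 tested genes of canonical NF-kB signaling and its feedback 1 was higher, and of 11 of the noncanonical arm 1 was higher, beside 1.06% of all genes. Against depth-matched cells 0 of 17 and 0 of 11 were. The first was Nfkbiz, an inducible nuclear partner of NF-kB, at 87.5, 91.4, 52.8 and 101 CPM against 49.3, 42.3, 36.6 and 76.5 CPM (0.75 ± 0.16 log2, adjusted p = 0.0205; depth-matched 0.61 log2, adjusted p = 0.168). The second was Cd40, a receptor that feeds the noncanonical arm, at 62.5, 45.7, 22.9 and 24.6 CPM against 12.5, 29.6, 14.4 and 23.1 CPM (1.29 ± 0.31 log2, adjusted p = 0.0378, and 0.0501 against depth-matched cells). The noncanonical subunits Relb and Nfkb2, which drive Cxcl13 in lymphoid stroma, had log2 values of 0.46 ± 0.17 and 0.79 ± 0.26 (adjusted p = 0.28 and 0.202).

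Of 14 tested cytokines 0 passed in either direction, a count that the shares over all genes (1.06% and 0.342%) would also give, and the median was 0.07 log2. Without the day 2 library 2 of the 14 were higher. Tnf, a main trigger of NF-kB, was at 110.0, 168, 44.0 and 150.2 CPM against 47.2, 53.1, 63.8 and 129 CPM (0.72 ± 0.23 log2, adjusted p = 0.164). Il12b, the shared subunit of IL-12 and IL-23, changed direction between libraries, with 67.5, 223, 44.0 and 39.4 CPM against 20.2, 27.3, 218 and 54.0 CPM (0.40 ± 0.51 log2, adjusted p = 0.852). With cells thinned to 2000 UMIs, an Il12b UMI was found in 5.26%, 9.09%, 8.91% and 1.23% of Cxcl13 cells from naive to day 3. In 0-UMI cells the shares were 1.43%, 1.51%, 4.83% and 2.32%, so day 3 went the other way. Pooled over the libraries, 24 of 416 Cxcl13 cells (5.77%) and 70 of 3676 0-UMI cells (1.90%) held one, and unthinned 8.25% and 2.84%. The classes draw on the libraries in unlike parts, so the pooled shares are a description only. Most Cxcl13 cells thus had no Il12b UMI at this depth.

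Costimulation and adhesion genes gave 2 of 11 higher, beside 1.06% of all genes, Cd40 being on this list as well. Vcam1, an adhesion molecule that binds integrins of lymphocytes, was at 109, 96.5, 82.7 and 121 CPM against 41.8, 39.6, 63.2 and 76.5 CPM, with no overlap between the classes (0.98 ± 0.17 log2, adjusted p = 0.0062). Cd69, an early activation marker that holds cells in tissue, had the largest log2 value among the genes named by rule. It stood at 172, 178, 114 and 64.0 CPM against 37.8, 51.2, 46.0 and 59.0 CPM (1.56 ± 0.22 log2, adjusted p = 0.00153) and was as high against depth-matched cells (1.54 log2, adjusted p = 8.37e-05). Its day 3 values were close together. Among cells with 16 or more Cxcl13 UMIs, a single cell held 31 of the 104 Cd69 UMIs in naive and another 20 of the 50 on day 2. On day 1 a single 0-UMI cell held 35 of the 133 Cd69 UMIs of its class. Cd72, an inhibitory receptor best known from B cells, was at 442, 528, 563 and 514 CPM against 130.03, 225, 399 and 429.6 CPM (0.98 ± 0.18 log2, adjusted p = 0.00675). Il2rg, the common gamma chain of interleukin receptors, was at 155, 127, 179 and 160.003 CPM against 52.4, 78.9, 99.3 and 119 CPM, again without overlap (0.99 ± 0.16 log2, adjusted p = 0.00219).

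Of 6 tested inflammatory effectors 4 were higher, beside 1.06% of all genes. Irg1 (now Acod1), which makes the antimicrobial metabolite itaconate, was at 33.7, 60.9, 28.1 and 39.4 CPM against 4.60, 9.23, 8.32 and 11.8 CPM, every Cxcl13 value above every 0-UMI value (2.37 ± 0.31 log2, adjusted p = 0.000993). Depth-matched cells gave 2.44 log2. The sums were small, with 27, 12, 16 and 16 UMIs in Cxcl13 cells, and a single cell held 7 of the 16 on day 2 and another 10 of the 16 on day 3. The other 3 were Ass1, Cybb and Sod2. Ass1, which rebuilds arginine from citrulline, was at 122, 86.3, 141 and 150.2 CPM against 28.8, 39.2, 71.5 and 98.4 CPM (1.29 ± 0.19 log2, adjusted p = 0.00153). Cybb, the catalytic subunit of the phagocyte NADPH oxidase, was at 341, 391, 301 and 401 CPM against 111, 139, 231 and 239 CPM (1.10 ± 0.16 log2, adjusted p = 0.00153). Sod2, the mitochondrial superoxide dismutase, had a smaller log2 value of 0.67 ± 0.16 (adjusted p = 0.0335, and 0.469 against depth-matched cells). C3, the central protein of complement, was the 1 gene called among 12 complement genes, at 66.2, 45.7, 52.8 and 118 CPM against 23.6, 31.9, 45.5 and 48.9 CPM (1.04 ± 0.20 log2, adjusted p = 0.0134), while the C1q chains C1qa, C1qb and C1qc had log2 values between 0.07 and 0.13.

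Among the gene lists, that of the type I interferon response held the most called genes. Of 38 tested, 23 were higher and 0 lower, beside 1.06% of all genes, and 38 of 38 had a positive log2 value with a median of 0.69. Among them were the antiviral effectors Ifit1, Ifit2, Ifit3, Ifit3b, Isg15, Rsad2, Oas1a, Oasl1, Oasl2, Zbp1 and Bst2 and the transcription factor Irf7. Against depth-matched cells 15 of 38 were higher, with Ifit3b, Oasl2 and Zbp1 among those that missed the threshold (adjusted p = 0.192, 0.0719 and 0.0731), and the median was 0.48, and without the naive library 0 of 38 passed, with a median of 0.42.

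Ifit2, which binds viral RNA, was at 411, 421, 288 and 431 CPM in Cxcl13 cells and at 147, 170.0, 221 and 265 CPM in 0-UMI cells, without overlap (1.03 ± 0.15 log2, adjusted p = 0.00153). Ms4a4c, a membrane protein induced by interferon, was at 269, 193, 239 and 179.7 CPM against 61.5, 65.4, 131 and 134 CPM (1.33 ± 0.20 log2, adjusted p = 0.00153). Irf7, the factor that amplifies the interferon response, was at 669.7, 701, 663 and 610.5 CPM against 226, 327, 512 and 506 CPM (0.88 ± 0.16 log2, adjusted p = 0.00939). In all 3 genes the 0-UMI cells stood higher on days 2 and 3 than in naive and day 1. The Cxcl13 cells did not, except for Ifit2 on day 3, which was slightly above naive and day 1.

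Further interferon genes named by rule were higher as well. Mnda, an interferon-inducible DNA sensor of myeloid cells, went from 1.97 log2 in naive to 0.03 on day 3 (1.13 ± 0.22, adjusted p = 0.0135), and DESeq2 gave it an adjusted p of 0.311. Oas1g and Oasl1, of the family of oligoadenylate synthetases that sense double-stranded RNA, had log2 values of 1.12 ± 0.24 and 1.03 ± 0.20 (adjusted p = 0.0213 and 0.0134). Oas1g has close paralogs in a cluster on chromosome 5, so its UMIs may be shared with them. Of 13 tested interferon gamma-linked genes 3 were higher, beside 1.06% of all genes. These were Cxcl9 above and the GTPases Gbp2 (1.03 ± 0.26 log2, adjusted p = 0.0483) and Iigp1 (1.12 ± 0.23 log2, adjusted p = 0.0182), and both GTPases missed the threshold against depth-matched cells (adjusted p = 0.156 and 0.187). AW112010, an interferon-responsive transcript first annotated as noncoding, was higher by 1.01 ± 0.16 log2 (adjusted p = 0.00184).

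Summed over the list, type I interferon genes took 13701, 13731, 14218 and 13544 CPM in Cxcl13 cells from naive to day 3. In 0-UMI cells they took 6016, 7272, 11585 and 12156 CPM. The Cxcl13 cells were thus at nearly the same level in all 4 libraries, while the 0-UMI cells of days 2 and 3 stood closer to them than those of naive and day 1. Over all kept cells the sum was 1715, 1073, 1582 and 7134 CPM in the controls from naive to day 3 and 6726, 7753, 12163 and 12611 CPM in A20 cKO.

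Antigen presentation genes were mostly above 0. All 18 tested genes of MHC class I and peptide loading had a positive log2 value (median 0.44), and 5 were higher, beside 1.06% of all genes, namely H2-K1, H2-Q6, H2-Q7 and the immunoproteasome genes Psmb8 and Psme1. Against depth-matched cells 1 of 18 was higher. H2-Q7, a nonclassical class I gene, was at 489, 467, 426 and 532 CPM against 187, 174, 373 and 437 CPM (0.85 ± 0.17 log2, adjusted p = 0.0162), with the caveat that H2-Q genes are near copies of each other. Of 8 tested class II genes 2 were higher, beside the same share. Cd74, the invariant chain that escorts class II molecules, was at 411, 376, 271 and 377 CPM against 165, 155, 227 and 247 CPM, without overlap (0.92 ± 0.15 log2, adjusted p = 0.00362, and 0.83 log2 against depth-matched cells). H2-Ab1 was higher by 0.96 ± 0.21 log2 (adjusted p = 0.0257) on sums of 51, 4, 25 and 25 UMIs. H2-Aa was found in 1, 1, 0 and 2 thinned Cxcl13 cells from naive to day 3 (0.526%, 2.27%, 0% and 2.47%). In thinned 0-UMI cells the shares were 0.876%, 0.963%, 0.763% and 0.258%. Pooled over the libraries they were 0.962% and 0.816% (unthinned 1.89% and 0.888%). Cd74 was found in 40.5%, 45.5%, 33.7% and 40.7% of thinned Cxcl13 cells and in 20.1%, 21.2%, 30.8% and 32.0% of thinned 0-UMI cells. Pooled over the libraries the shares were 39.4% and 22.7% (unthinned 59.2% and 31.5%).

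Homeostatic microglia genes went the other way. Of 22 tested, 0 were higher and 4 lower, beside 0.342% of all genes, and 2 of 22 had a positive log2 value. Fcrls, an Fc receptor-like scavenger molecule used as a microglia marker, was at 137, 96.5, 80.9 and 83.7 CPM in Cxcl13 cells and at 555, 639, 129.8 and 125 CPM in 0-UMI cells (-1.51 ± 0.21 log2, adjusted p = 0.00153). Each library was lower in Cxcl13 cells, and depth-matched cells gave -1.22 log2 (adjusted p = 8.3e-05), while DESeq2 gave an adjusted p of 0.104. Slc2a5, a fructose transporter of microglia, was at 57.5, 20.3, 21.1 and 27.1 CPM against 162, 78.1, 38.8 and 46.7 CPM (-1.25 ± 0.19 log2, adjusted p = 0.00153).

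P2ry12, the ADP receptor that steers microglial processes, was at 1213, 660.1, 784 and 709 CPM in Cxcl13 cells and at 2939, 1490, 960.0 and 873 CPM in 0-UMI cells (-0.71 ± 0.14 log2, adjusted p = 0.0136). Gpr34, a lysophospholipid receptor, was the fourth gene of the list, at 502, 309.8, 287 and 364 CPM against 1160, 579, 313 and 440.3 CPM (-0.59 ± 0.14 log2, adjusted p = 0.0387; depth-matched -0.26 log2, adjusted p = 0.534). Tmem119 did not follow them, with 1914, 1884, 1643 and 1605 CPM against 2377, 1940, 1699 and 1682 CPM (-0.07 ± 0.10 log2, adjusted p = 0.881). The sum of the 22 genes was 52546, 43533, 43008 and 45960 CPM in Cxcl13 cells against 74362, 58474, 46887 and 47820 CPM, so the gap was again wide in naive and day 1 and narrow on days 2 and 3.

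Further lower genes of the rule were Csmd3 (-1.12 ± 0.19 log2, adjusted p = 0.00362), Gas6, the ligand of the TAM receptors (-0.92 ± 0.18, adjusted p = 0.0134), Cables1 (-0.85 ± 0.17, adjusted p = 0.0138), the transporter Abca9 (-0.83 ± 0.13, adjusted p = 0.00184), the transcription factor Sox4 (-0.82 ± 0.20, adjusted p = 0.0472), Ltc4s, which makes leukotriene C4 (-0.78 ± 0.14, adjusted p = 0.00625), and Ecscr (-0.75 ± 0.16, adjusted p = 0.02). Against depth-matched cells Sox4, Ltc4s and Ecscr missed the threshold (adjusted p = 0.584, 0.0776 and 0.13). Gas6 was at 35.0, 60.9, 72.1 and 81.2 CPM against 97.3, 198, 118 and 96.2 CPM, and its receptor gene Axl moved in the opposite direction, at 302, 309.8, 341 and 342 CPM against 135, 165, 264 and 318 CPM (0.68 ± 0.15 log2, adjusted p = 0.021).

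Ttr, the thyroxine carrier of choroid plexus, met the rule with -5.00 ± 0.23 log2 (adjusted p = 3.18e-11), but its value rested on single barcodes. In each library 1 barcode without a Cxcl13 UMI held between 85.3% and 95.8% of the Ttr UMIs, and that barcode occurred in 5 libraries. Without barcodes shared between libraries the log2 value was -0.62 (adjusted p = 0.683). The same barcodes held 81.6% to 93.0% of the UMIs of Enpp2 and 37.1% to 44.8% of those of Clu in each library, which were also called lower (-2.44 log2 for Enpp2 and -3.19 log2 for Clu).

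Genes of disease-associated microglia were mixed. Of 22 tested 5 were higher, namely Axl, the cystatin Cst7, the lectin Lgals3, the ferritin chain Fth1 and Cd52, and 0 were lower, beside 1.06% and 0.342% of all genes. Cst7 and Lgals3 missed the threshold against depth-matched cells (adjusted p = 0.143 and 0.114). Fth1 was the most abundant, at 7148, 9074, 7585 and 8419 CPM against 4170, 5757, 6573 and 6055 CPM, without overlap (0.58 ± 0.11 log2, adjusted p = 0.0109). Apoe, the lipid carrier that defines this state in many studies, was at 1363, 3514, 1456 and 2235 CPM against 795, 1170, 1597 and 2022 CPM and did not pass (0.64 ± 0.19 log2, adjusted p = 0.114). Trem2, its upstream receptor, had a log2 value of -0.18 ± 0.10. Of 14 tested Toll-like receptor genes 1 was higher, beside 1.06% of all genes, Tlr2 (0.66 ± 0.16 log2, adjusted p = 0.0405, in 3 of 4 libraries, and 0.42 log2 with an adjusted p of 0.0979 against depth-matched cells), and of 13 immediate-early genes 1 was lower, beside 0.342%, Jund (-0.54 ± 0.13 log2, adjusted p = 0.0405).

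**Figure D4:**
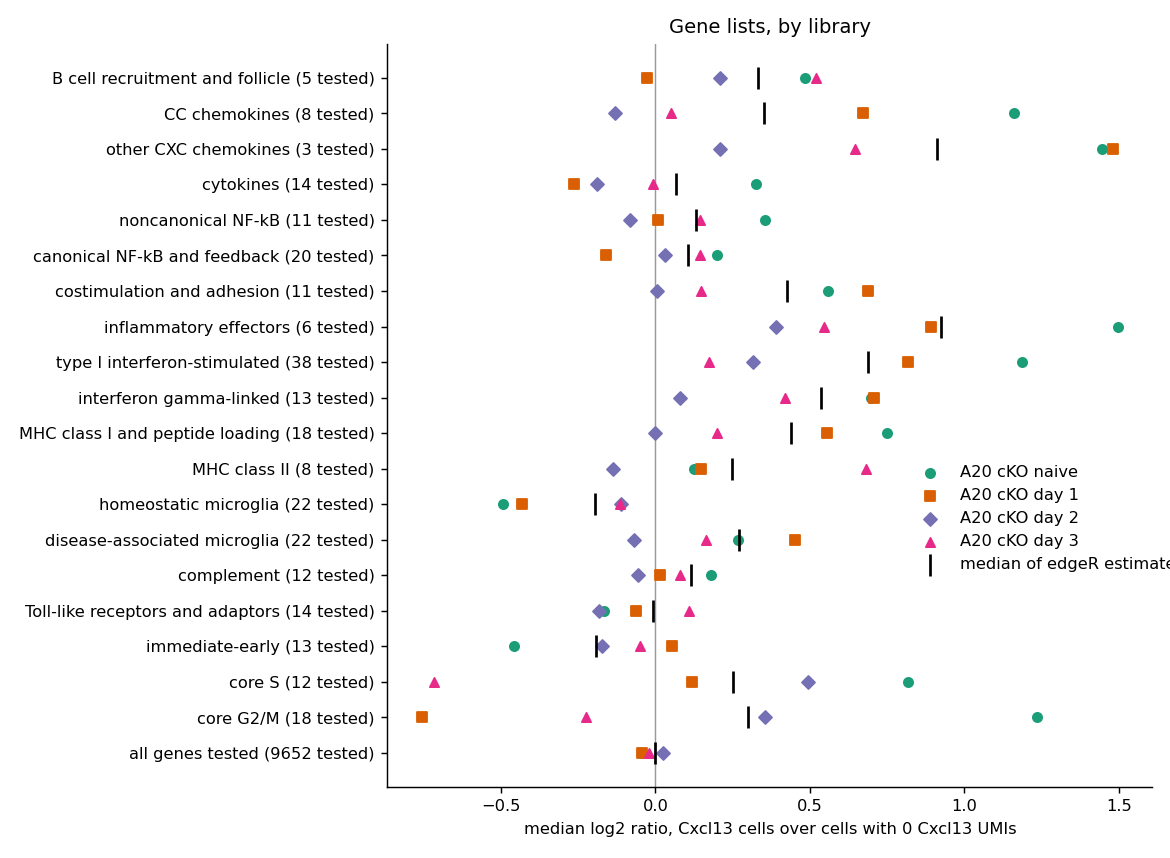
Median log2 ratio of Cxcl13 cells over 0-UMI cells for each gene list, with 1 symbol per A20 cKO library and a black bar for the median of the edgeR estimates; the number of genes tested is given with each name and the lowest row is all genes tested. Type I interferon genes lie at 1.19 in naive and 0.17 on day 3, and homeostatic microglia genes lie below 0 in all 4 libraries.

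Lists of few tested genes weigh little in this comparison, and some genes stand on 2 lists (Cd40, Ltbr, Cd274, Cxcl9 and Cxcl12). The lists of chemokines, effectors and interferon genes are therefore not independent of each other.

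Dividing cells were counted by core cell cycle genes in cells thinned to 2000 UMIs. The share in G2/M (UMIs of at least 3 of 18 core genes) was 6.84%, 4.55%, 17.8% and 7.41% of Cxcl13 cells from naive to day 3 and 2.26%, 3.03%, 11.5% and 5.93% of 0-UMI cells. It was higher in 4 of 4 libraries, by a mean of 3.49 points ± 2.41 (SD, n = 4), at the smallest p that 4 libraries allow (exact two-sided sign-flip permutation, p = 0.125). Against depth-matched 0-UMI cells the difference turned to -3.60 points (exact permutation p = 0.25, n = 4). The S phase share (at least 3 of 12 core S genes) differed by -0.580 points ± 2.88 (exact permutation p = 0.75, n = 4). With another random thinning the G2/M difference was 1.28 points, higher in 3 of 4 libraries (exact permutation p = 0.5), so the count of 4 rests on the random draw. In the edgeR fit 0 of 12 core S genes and 0 of 18 core G2/M genes passed. Against depth-matched cells 5 of the 18 G2/M genes were lower (median -0.82 log2), and in cells with at least 16 Cxcl13 UMIs 2 S genes and 1 G2/M gene were higher.

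Cells with more Cxcl13 UMIs differed further from 0-UMI cells. Over the 102 higher genes the median log2 value against 0-UMI cells was 0.10 in cells with 1 Cxcl13 UMI, 0.29 in cells with 2 or 3 and 0.98 in cells with 16 or more. Over the 33 lower genes it was -0.14, -0.58 and -1.07. Since these genes were chosen in the same cells, the values describe the grading and do not test it. Median depth, pooled over the 4 libraries, was 3006.5, 3510, 3498, 4207 and 4795 UMIs from 0 to 16 or more Cxcl13 UMIs. These classes were not matched in depth, so the part of depth in the grading was not tested. Fitted over all genes, cells with 1 UMI gave 5 genes higher and 4 lower (0.0508% and 0.0406% of 9850 tested), cells with 2 or 3 UMIs 1 and 2, and cells with 16 or more 147 and 62. The 2 to 3 UMI class was small, with 8 cells on day 1 and 10 on day 3.

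Fcrls was graded in naive and day 1. In naive it went from 555 CPM in 0-UMI cells over 502 (1 UMI), 255 (2 or 3) and 97.2 (4 to 15) to 111 (16 or more), and on day 1 from 639 over 559, 218 and 58.8 to 104. On day 2 it went from 129.8 over 111, 84.6 and 78.6 to 79.8. The fall was complete at 4 UMIs in naive and day 1, and on days 2 and 3 the 0-UMI cells already stood near the level of the Cxcl13 cells. Ms4a4c rose over the classes in naive, from 61.5 over 53.3, 113 and 207 to 415 CPM. On day 3 it was at 134, 158, 261, 159 and 186 CPM, without an order.

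**Figure D5:**
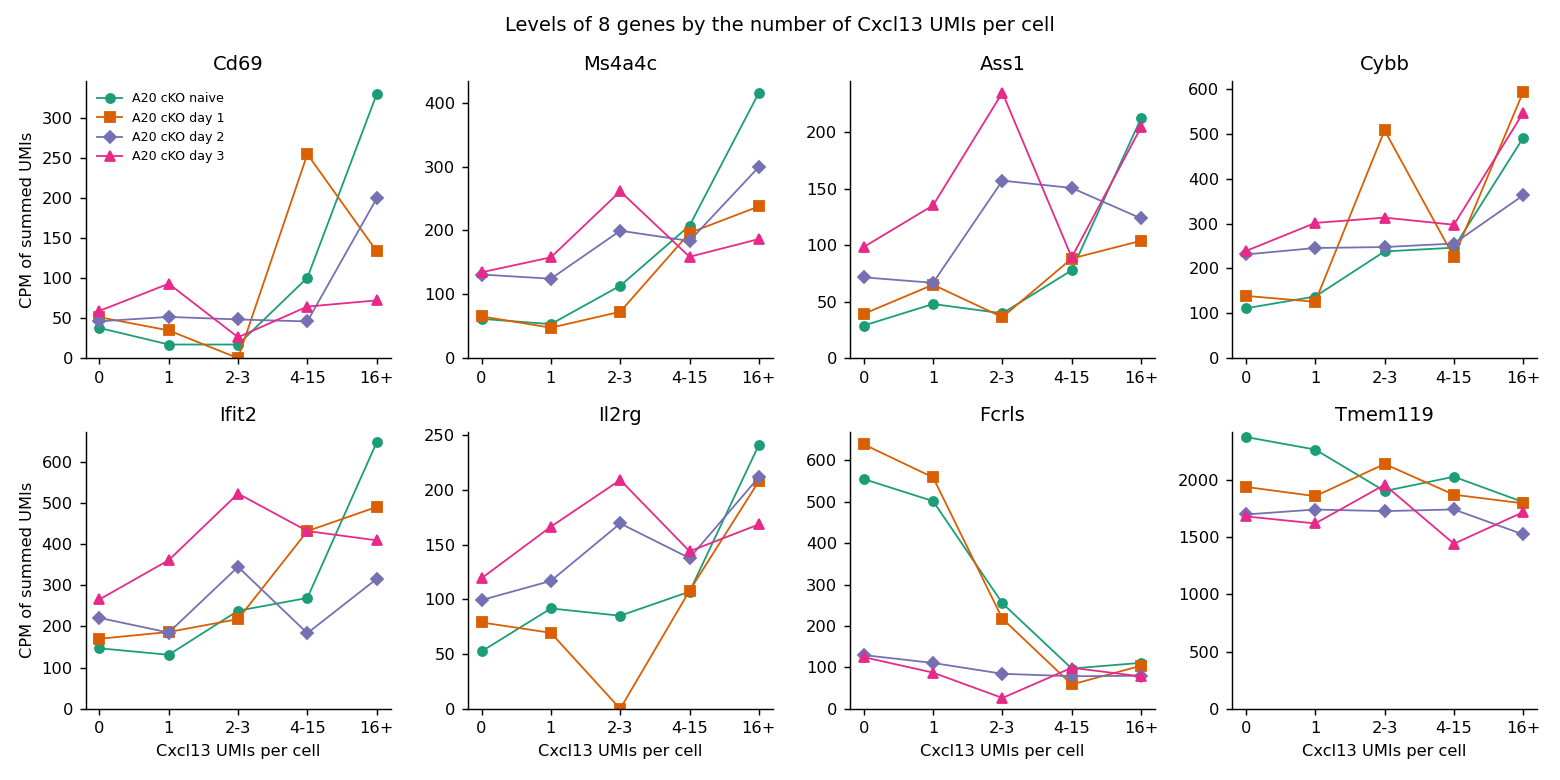
CPM of 8 genes in summed cells with 0, 1, 2 to 3, 4 to 15 and 16 or more Cxcl13 UMIs, with 1 line per A20 cKO library. Fcrls falls in naive from 555 to 111 CPM and Ms4a4c rises there from 61.5 to 415 CPM, while Tmem119 stays between 1443 and 2377 CPM in all classes and libraries.

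The promoters of the called genes differed in how often they held the motifs printed above. A window was given for 72 of the 102 higher genes, and 19 of these (26.4%) held the interferon core, against 3.38% of the 7422 tested genes with a window. Of 21 lower genes with a window, 0 held it. The NF-kB core was in 2 of the 72 (2.78%, against 1.82% of tested genes) and a TATA box in 6 of the 72 (8.33%, against 4.22%). The NF-kB count covers that narrow pattern only, so how common NF-kB sites are in these windows was not measured. Cybb held 3 interferon cores, at 168, 124 and 29 bases before its start, and Gbp2 held 1 at 59 bases. These counts describe the windows and were not tested.

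Over all kept cells of a library, Cybb, Irg1 and Fcrls also stood apart between control and A20 cKO. Cybb was at 4.94, 4.41, 4.74 and 25.9 CPM in the controls from naive to day 3 and at 135, 154, 247 and 274 CPM in A20 cKO. Irg1 was at 0 in control naive, days 1 and 2 and at 0.686 CPM on day 3, against 7.07 to 14.97 CPM in A20 cKO. Fcrls was at 1336, 1454, 1229 and 1078 CPM in the controls and at 512, 598, 116 and 113 CPM in A20 cKO. Some other named genes did not stand apart in this way. Ifit2 was at 242 CPM in control day 3 and 169 CPM in A20 cKO naive. Gbp2 was at 68.1 CPM in control day 3 and 58.7 CPM in A20 cKO day 3. P2ry12 was at 2191 CPM in control day 3 and 2757 CPM in A20 cKO naive. These are single libraries per group and were not tested, and the levels of A20 cKO include the Cxcl13 cells.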

How the data were processed

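Single-cell RNA sequencing of 8 libraries (4 control, 4 A20 cKO) was analyzed. Unnormalized UMI counts were deposited by the authors for 27998 gene identifiers and each barcode. The submitters' processing notes name Cell Ranger 2.1.1 and mm10. The treatment of doublets is not given in the sources used here. No doublet caller was run, and leaving out the deepest 5% of barcodes was tried instead.

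Barcodes were kept with at least 1000 UMIs, at least 500 genes and at most 10% mitochondrial UMIs. Counts of the Cxcl13 cells (at least 2 UMIs) and 0-UMI cells were summed per library, and CPM was computed as UMIs per 1000000 UMIs other than Cxcl13. The sums were fitted in R 4.3.3 with edgeR 4.0.16 (TMM, filterByExpr, quasi-likelihood test, Benjamini-Hochberg adjustment at 0.05) with the library as a block, because both sums of a pair came from the same library. SE was the log2 value divided by the square root of F. DESeq2 1.42.0 was an alternative. The script was tested on simulated data. Intervals cover counting error only. UMI totals per library were 1648400 to 15817426, and small sums limit the precision of rare genes.

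Genes named by rule were the 15 higher and 10 lower called genes with the largest log2 values, the same sign in all 4 libraries and a mean of at least 50 CPM, leaving out mitochondrial, ribosomal-protein, sex-linked (Xist and Y) and predicted genes. Tnfaip3, Cxcr5, Il12b, P2ry12, Tmem119 and called members of the lists were added. The cells, gene lists and tests were chosen with earlier results of these data known. Alternatives covered normalization, filters, the UMI threshold, depth matching, shared barcodes, the block and each library left out. Results for some genes are not reported here.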

Additional observations from a re-analysis of the deposited data

Results flagged for a closer look

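Tmem119, a microglia marker that did not pass the test between Cxcl13 cells and 0-UMI cells, had a log2 ratio of -0.31 in the naive library, apart from -0.04, -0.05 and -0.07 on days 1, 2 and 3. The gap to the nearest library was 0.902 of the whole range of the 4 values. Of 30 genes and lists examined in this way 1 stood out, and chance gives about 1 in 20.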

How the results depend on the processing

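The number of called genes depended on the fit more than the direction did. From 102 higher and 33 lower, the counts became 59 and 8 with DESeq2, 168 and 89 without a filter on low counts, 58 and 24 against depth-matched 0-UMI cells and 51 and 21 when cells with at least 4 UMIs were matched in depth. Leaving out 1 library gave between 0 and 157 higher and between 1 and 50 lower genes, with the lowest counts without naive and the highest without day 2. Without the library as a block 0 were higher and 1 lower (314 and 230 at an unadjusted p of 0.05). Classes added after seeing the data gave 5 and 4 (1 UMI), 1 and 2 (2 or 3 UMIs) and 147 and 62 (at least 16 UMIs). The cytokine median lay between -0.20 (without naive) and 0.15 log2 (without day 2) when 1 library was left out, and against depth-matched cells the medians of complement and core G2/M genes became -0.040 and -0.82 log2. The cause was not tested.

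Of the 70 called genes taken by the naming rule none changed sign except in the low classes. In cells with 1 UMI these were Cd69 (-0.14), Ms4a4c (-0.060), C3 (-0.26), AW112010 (-0.017), Cxcl10 (-0.19), Irg1 (-0.36), Sod2 (-0.14), Ifit1 (-0.18), Ifit3b (-0.16), Rsad2 (-0.36), H2-Q6 (-0.10), H2-Q7 (-0.051) and Cd74 (-0.059 log2). In cells with 2 or 3 UMIs they were Cd69 (-0.69), Ccl7 (-0.14), Gbp2 (-0.14), Ch25h (-1.84), Cxcl9 (-0.23), Cxcl10 (-0.23), Slfn5 (-0.20), Psmb8 (-0.033), Cst7 (-0.29), Lgals3 (-0.61) and Fth1 (-0.081 log2).

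With a threshold of 1 UMI the shares were 0.661% in control day 3 and 16.5%, 12.3%, 35.8% and 27.1% in A20 cKO from naive to day 3. With 4 UMIs the A20 cKO shares were 4.997%, 4.29%, 10.5% and 12.7% and with thinning 6.16%, 4.34%, 11.2% and 12.1%, so day 3 then stood above day 2. As a mean over cells, Cxcl13 was at 395, 267, 720.4 and 717 CPM. The S phase difference turned from -0.580 to 2.83 points unthinned and 1.51 with another thinning seed, and that of G2/M went from 3.49 to 1.28 with that seed and to -3.60 with depth-matched cells.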
